A study of Mus musculus with 6 samples.

Results

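This comparison set the ileum of mice with a ligated common bile duct that had been dosed with GW4064 (BDL_GW4064, 2 arrays) against the ileum of sham-operated mice given vehicle (Sham_Vehicle, 2 arrays). These 4 arrays of the 6 in the series were chosen by their sample titles, and all 22626 probe sets that are not controls were considered. The other 2 arrays, from ligated mice given vehicle (BDL_Vehicle), show where ligation alone placed each gene and enter the estimate of the spread. All mice were wild-type males with a mixed C57BL/6:129Sv background, aged 8 to 10 months, and ate standard chow. In the ligated groups the bile duct was tied with silk, and in sham mice it was only freed through the same incision. GW4064 was gavaged at 100 mg/kg per day in 1% Tween80 and 1% methylcellulose from 2 days before surgery until 5 days after it, and the vehicle groups received the carrier alone. The ligated, GW4064-dosed mice therefore differed from the sham mice in both surgery and agonist, and a sham group given GW4064 is not analysed here, so what the agonist does without ligation cannot be told apart from what it does after it. The labels do not say how many animals went into an array, so p-values measure the spread between these arrays, which may be partly technical.

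GW4064 is a synthetic agonist of the farnesoid X receptor (FXR, gene Nr1h4), the nuclear receptor for bile acids. In the ileum, enterocytes take up bile acids through the apical transporter Slc10a2, carry them on the cytosolic protein Fabp6 and export them through the basolateral transporter made of Slc51a and Slc51b. FXR senses them on the way and induces, among others, the hormone Fgf15, which lowers bile acid synthesis in the liver, and the corepressor Nr0b2. Tying the bile duct stops bile from reaching the gut, so that the intestinal receptor loses its natural ligands while GW4064 can still bind it. The question of this comparison is which genes the agonist leaves at the sham level in a ligated animal, which it carries beyond that level, and which stay away from it.

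The values are Affymetrix MAS5 signals, scaled so that the 2% trimmed mean of every array was 200.1. Tests were run on log2(signal + 4), so every log2 difference below understates the change of a dim gene, and errors on differences are standard errors from the limma fit. The 9051 dimmest probe sets, with a mean below a signal of about 37.1, were left out, and 13575 probe sets of 7919 named genes were tested. The sham pair correlated at r = 0.974 over the probe sets, the GW4064 pair at 0.972, and sham with GW4064 arrays at 0.962 to 0.968. The 5' probe set of the 18S rRNA control read 67.3 to 88.7 on both sham arrays and BDL_Vehicle replicate 1, and 8.6 to 13.3 on BDL_Vehicle replicate 2 and both GW4064 arrays. The labels do not describe this split beyond saying that in vitro transcription was run in batches. It falls exactly between the 2 groups compared, so that on their 4 arrays it cannot be told apart from the comparison. Only the ligated vehicle pair spans it. The ratio of the 3' to the 5' actin control, a sign of RNA integrity, was 1.73 on Sham_Vehicle replicate 2 and 1.09 to 1.22 on the other 5 arrays. Enterocyte markers summed to signals of 32830 to 32891 on the sham arrays and 29200 to 33933 on the GW4064 arrays, and 5 of 8 liver markers were under the signal of 37.1 on all 4 arrays.

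Most of the transcriptome lay close to sham. The 95% interval of the difference between ligation with GW4064 and sham stayed inside a 2-fold change in either direction for 10660 of 13575 probe sets (78.5%), and the median log2 difference over all genes was 0.01. At a Benjamini-Hochberg adjusted p under 0.05 limma called 5 probe sets (0.0368% of those tested), of which 3 were higher (0.0221%) and 2 lower (0.0147%). At an unadjusted p under 0.05 there were 2169 (16% of those tested, against 679 if no probe set differed), of which 992 were higher (7.31%) and 1177 lower (8.67%). The plot of all tested probe sets against their mean signal shows how few of the wide differences passed the adjusted test.

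**Figure D1:**
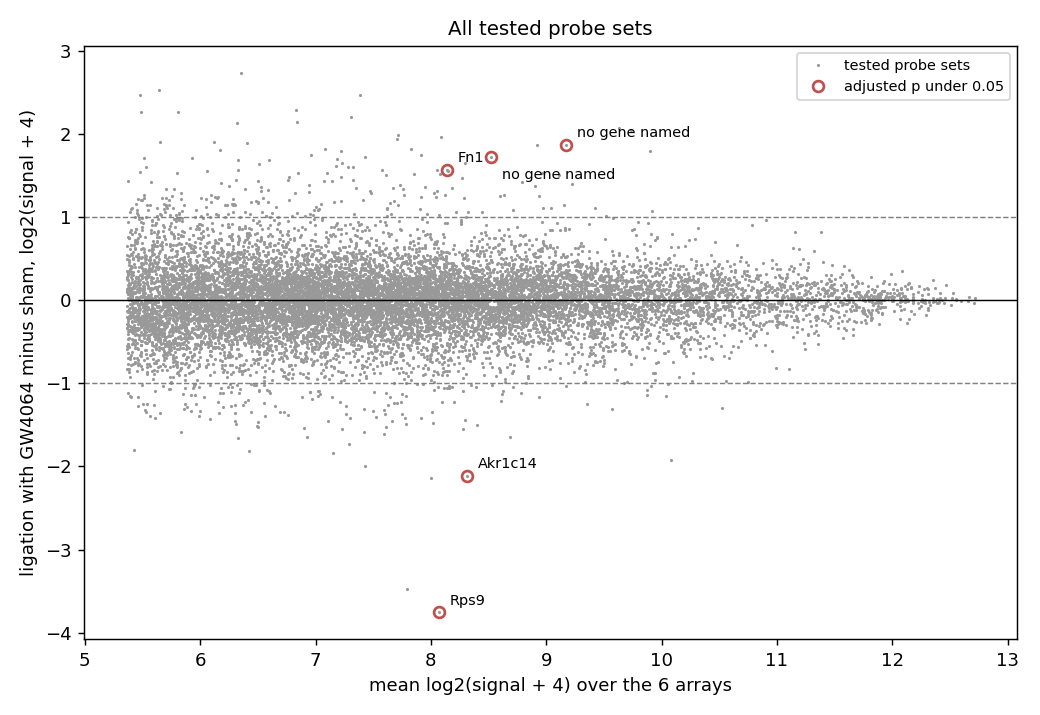
Log2 difference between ligation with GW4064 and sham (vertical axis) against the mean log2(signal + 4) over the 6 arrays (horizontal axis) for the 13575 tested probe sets. Red circles mark the 5 with an adjusted p under 0.05, dashed lines a 2-fold difference; the called probe sets lie outside the dashed lines, as do many that were not called.

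Akr1c14, an aldo-keto reductase of the 3-alpha-hydroxysteroid dehydrogenase family, fell. It read 516.5 and 649.5 on the sham arrays, 440 and 371 after ligation with vehicle and 136 and 126.5 after ligation with GW4064. No GW4064 array came near a sham array, and ligation alone left the gene between the other groups. The fall was 4.32-fold (log2 difference -2.11 ± 0.17, limma adjusted p = 0.0254), and against ligation with vehicle the difference was -1.60 ± 0.17 (adjusted p = 0.0378), the latter in a comparison where 0.0516% of probe sets were called. Fn1, which encodes the matrix protein fibronectin, rose. Its signals were 187 and 231 in sham, 168 and 162 after ligation with vehicle and 632 and 620.5 with GW4064, a 2.97-fold rise (log2 difference 1.57 ± 0.16, adjusted p = 0.03). Here ligation alone sat slightly below sham, outside the range between the compared groups. A pair of probe sets not annotated to 1 gene alone also rose, one by 1.72 ± 0.15 (adjusted p = 0.0254) and the other by 1.87 ± 0.18 (adjusted p = 0.0279). The remaining call was 1 of the 3 Rps9 probe sets, which was lower with GW4064. It read 850 and 685.5 in sham, 652 and 296 after ligation with vehicle and 45.9 and 60.8 with GW4064. Rps9 encodes a protein of the small ribosomal subunit, and its brightest probe set differed by only 0.03, so the probe sets of this gene disagreed. All 5 calls were lost without Sham_Vehicle replicate 1, without Sham_Vehicle replicate 2 or without BDL_GW4064 replicate 2, and 3 of them were among 32 calls, 27 of these higher, without BDL_GW4064 replicate 1. With the 18S array split as a term in the model limma called 0 probe sets, with 436 at an unadjusted p under 0.05. That term rests on the ligated vehicle pair, 1 array on each side of the split, and takes up 1 of the 3 residual degrees of freedom. GW4064 minus BDL_Vehicle replicate 2 was -1.47 for Akr1c14 and 1.93 for Fn1. BDL_Vehicle replicate 1 minus sham was -0.39 and -0.30. Whether the split accounts for the calls was not tested.

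Among tested probe sets, 345 differed at least 2-fold from sham with no overlap between the pairs of arrays, 186 of them higher (1.37% of those tested) and 159 lower (1.17%). Ligation with vehicle stood between sham and GW4064 but nearer sham for 166 of the 345 (48.1%), nearer GW4064 for 90, on the far side of sham for 76 and beyond GW4064 for 13. Among the 76 on the far side of sham, 69 were higher with GW4064. The lower differences were more often seen on a dimmer probe set of a gene than on its brightest. Of 147 lower probe sets that name 1 gene, 51 were the brightest of their gene. For 91 of the other 96 the brightest probe set lay within 2-fold of sham. Of 170 higher ones, 98 were the brightest, and for 56 of the other 72 the brightest lay within 2-fold. Probe sets with the suffix _x_at, whose probes can match several transcripts, made up 27% of the lower set and 3.76% of the higher set. They were 7.71% of all tested, a split looked at after the values were seen. The called Rps9 probe set and 1 of the called pair without a single gene carry this suffix. The lowest 10% of _x_at probe sets lay under -0.83 and -0.67 from the sham mean on the GW4064 arrays. On BDL_Vehicle replicate 2 they lay under -0.73, and on BDL_Vehicle replicate 1 under -0.32. Low values of such probe sets were thus not limited to the GW4064 arrays, and the cause was not tested. A gene is described below by its brightest probe set, or, among the genes that differed with ligation, by the probe set that met the rule where this is said.

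With ligation alone 96 probe sets, of 72 named genes, differed at least 2-fold from sham without overlap, 41 higher (0.302% of those tested) and 55 lower (0.405%). Of these, 4 passed the adjusted test for ligation (0.0295%), namely those of Fgf15, Cyp3a11 and Fabp6 and the dimmest Cyp2b10 probe set (limma adjusted p = 0.0362). The brighter Cyp2b10 probe sets did not pass (adjusted p = 0.200). Each of the 96 was placed by the 95% interval of its difference between GW4064 with ligation and sham. It was near sham when the interval lay wholly within 2-fold, and overshoot when the interval excluded 0 on the side opposite to ligation. It was still changed when the interval excluded 0 on the side of ligation, and unresolved otherwise. Because these probe sets were picked with the same sham arrays, the counts describe the arrays and are not tested. The probe sets were also picked for values far from sham on the ligated vehicle arrays. Values closer to sham with GW4064 than with vehicle can therefore arise from this choice alone. Whether the agonist added to such shifts in the counts and medians was not tested. With GW4064, 11 of the 96 were near sham, 3 overshot, 51 were still changed and 31 were unresolved. Of the 55 that were lower with ligation, 50 lay closer to sham with GW4064 than without it, and the median went from -1.16 to -0.67. Of the 41 that were higher, 25 lay closer, and the median went from 1.10 to 0.97. The sham reference of the higher set leaned more on 1 sham array. Sham_Vehicle replicate 2 was the lowest of the 6 arrays for 29 of the 41 and Sham_Vehicle replicate 1 for 11. By the choice of these probe sets a ligated vehicle array could not be the lowest. Still changed probe sets numbered 241 without Sham_Vehicle replicate 1, 154 without BDL_Vehicle replicate 1 and 33 without BDL_Vehicle replicate 2, and near sham ones 31 and 30 without ligated vehicle replicate 1 or 2. The size threshold ran between Wdr33, just inside it, and Mylip, at a ligation difference of -0.998 just outside it.

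**Figure D2:**
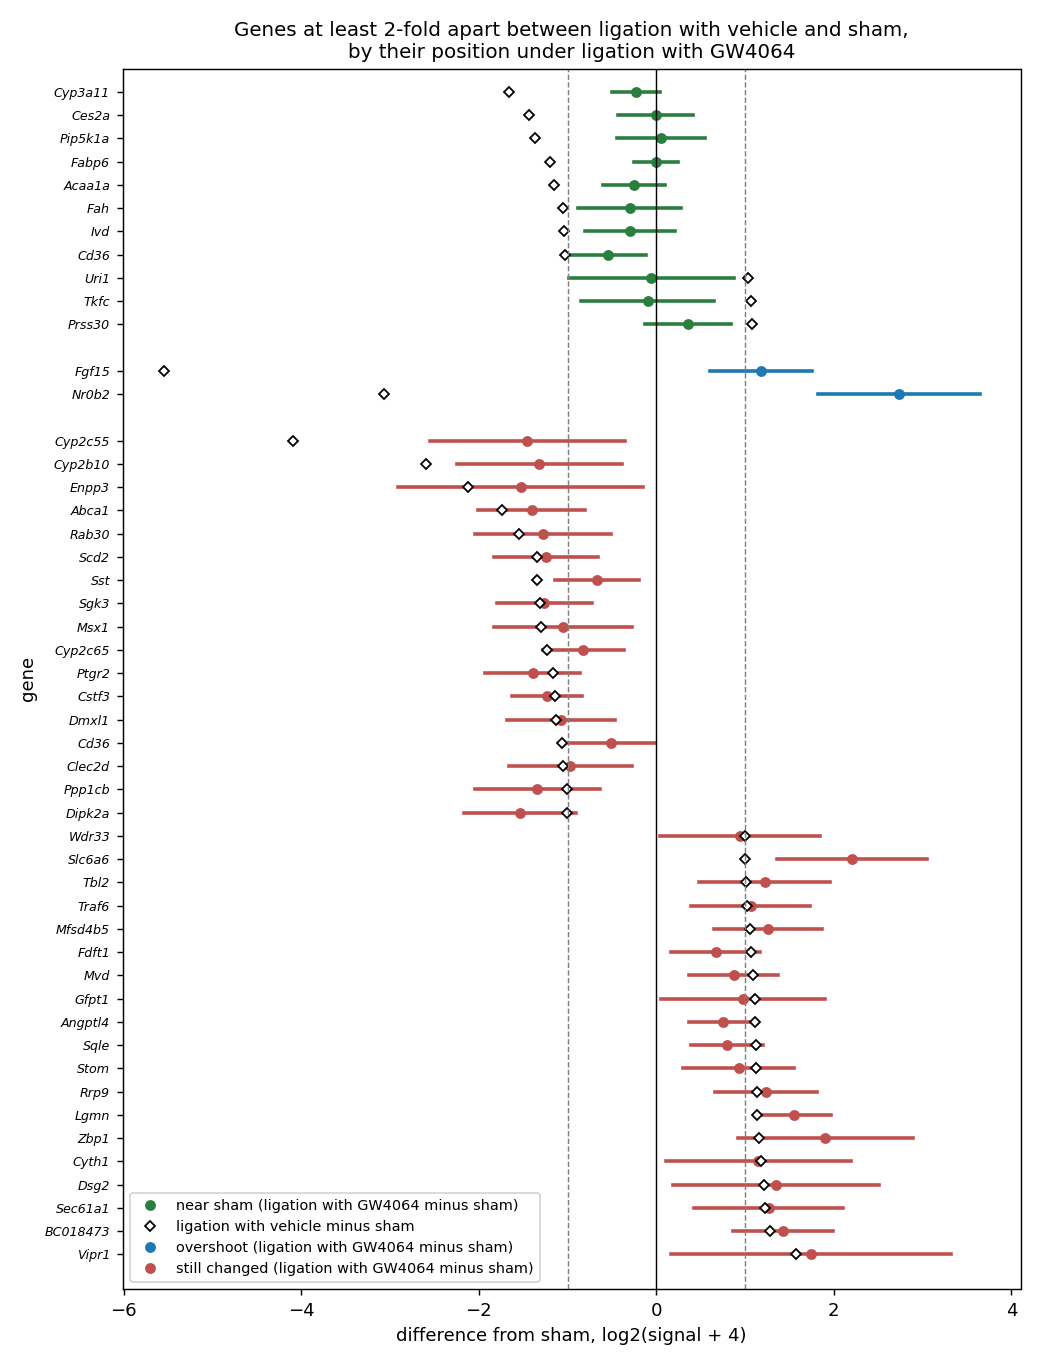
Log2 difference from sham (horizontal axis, log2 of signal + 4) for the named genes near sham, overshooting and still changed, 1 probe set per gene and class. Filled points with lines are ligation with GW4064 and its 95% interval, open diamonds ligation with vehicle, and the dashed lines mark 2-fold. Fgf15 and Nr0b2 are the named genes far below sham with vehicle and above it with GW4064.

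The named genes that overshot were Fgf15 and Nr0b2, both known direct targets of FXR. Fgf15 read 316 and 479.6 in sham, 5.5 and 3.4 after ligation with vehicle and 972 and 809.6 after ligation with GW4064. The ligated vehicle arrays were thus at the bottom of the scale, while both GW4064 arrays exceeded both sham arrays. Against sham the log2 difference was 1.18 ± 0.25 (2.26-fold, 95% interval 0.61 to 1.75), which did not pass the adjusted test (adjusted p = 0.176), whereas the difference from ligation with vehicle did (adjusted p = 7.93e-05), being at least 21.7-fold when the ligated arrays, both under it, are set to the signal of 37.1. Nr0b2, the small heterodimer partner that represses other nuclear receptors, gave 63.2 and 112 in sham, 10.8 and 3.5 after ligation with vehicle and 692 and 493.5 with GW4064. Its difference from sham of 2.73 ± 0.39 came to 6.65-fold (interval 1.83 to 3.64, adjusted p = 0.103). Fgf15 stayed in this class in 17 of 17 alternative settings and Nr0b2 in the 16 in which it was tested. The third overshooting probe set is not annotated to 1 gene alone.

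The genes found near the sham level with GW4064 were led by the ileal bile acid binding protein and an intestinal P450. Dosing began before surgery, so whether they first fell and then returned was not seen. Fabp6 stood at 6480.3 and 6651 in sham, 2620.5 and 3109.5 after ligation with vehicle and 6691 and 6412 with GW4064, so the GW4064 arrays bracketed the sham arrays. The difference from sham was 0.00 ± 0.11 with an interval of -0.25 to 0.24, and that for ligation alone was -1.20 ± 0.11 (adjusted p = 0.0194). Cyp3a11, a xenobiotic- and bile acid-metabolising P450, had 2193.5 and 1955 in sham, 629 and 674 after ligation with vehicle and 1787 and 1754 with GW4064. Both GW4064 values stayed a little under the sham values, with a difference of -0.23 ± 0.12 (interval -0.49 to 0.04), against -1.66 ± 0.12 for ligation alone (adjusted p = 0.00526). Ces2a, a carboxylesterase that hydrolyses esters and lipids, read 2080.3 and 2043 in sham, 673 and 854 after ligation and 2419 and 1738 with GW4064. Acaa1a, a peroxisomal thiolase of fatty acid oxidation, gave 299 and 319, then 133 and 139.5, then 274 and 245 in the same order of groups. For Ces2a the GW4064 arrays lay on either side of the sham pair, while for Acaa1a both were below it and well above the ligated vehicle pair. Pip5k1a, a phosphoinositide kinase, met the rule on one probe set (130 and 115 in sham, 46.9 and 42.6 with ligation, 110.2 and 146 with GW4064), but its brightest probe set showed no ligation difference (0.00). The class also held 1 probe set each of Fah and Ivd, enzymes of amino acid breakdown, with intervals of -0.88 to 0.28 and -0.81 to 0.21. Tkfc, a triokinase, and Uri1, a prefoldin-like chaperone, both higher with ligation alone, lay near sham with wide intervals of -0.85 to 0.65 and -0.99 to 0.88, and Prss30, a serine protease that was also higher with ligation, had one of -0.12 to 0.84. The Ivd and Uri1 probe sets were not the brightest of their genes, which differed from sham by 0.11 and -0.26. Cd36, a fatty acid translocase, lay at the edge of the rule, with one probe set at -0.54 and near sham and the brighter one at -0.51 (upper bound of its interval -0.013) and still changed. Fabp6 and Cyp3a11 kept their class in 17 of 17 alternative settings, Ces2a in 16 and Prss30 in 14. Fah and Tkfc kept it in 12, Ivd in 13, Uri1 in 8, and the Cd36 probe sets in 9 and 4.

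Because Nr0b2 overshot while Fabp6 and Cyp3a11 lay near the sham level, the bases before their start sites are shown for comparison. They are 250 bases ending at the base before the annotated start, on the gene's own strand (RefSeq, GRCm38.p6). The windows are chr4:133553126-133553375 (plus strand) for Nr0b2, chr11:43601563-43601812 (minus strand) for Fabp6 and chr5:145879855-145880104 (minus strand) for Cyp3a11. Capitals mark the nuclear receptor hexamers AGGTCA and AGTTCA on either strand.
Nr0b2: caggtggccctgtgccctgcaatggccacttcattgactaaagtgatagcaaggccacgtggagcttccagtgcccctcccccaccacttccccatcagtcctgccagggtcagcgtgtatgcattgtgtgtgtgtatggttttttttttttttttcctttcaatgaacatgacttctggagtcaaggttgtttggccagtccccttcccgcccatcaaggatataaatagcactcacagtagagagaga
Fabp6: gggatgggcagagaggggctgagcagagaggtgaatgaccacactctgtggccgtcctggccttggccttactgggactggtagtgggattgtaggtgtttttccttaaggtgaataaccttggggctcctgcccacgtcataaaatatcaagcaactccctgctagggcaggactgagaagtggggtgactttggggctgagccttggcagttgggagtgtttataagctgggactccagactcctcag
Cyp3a11: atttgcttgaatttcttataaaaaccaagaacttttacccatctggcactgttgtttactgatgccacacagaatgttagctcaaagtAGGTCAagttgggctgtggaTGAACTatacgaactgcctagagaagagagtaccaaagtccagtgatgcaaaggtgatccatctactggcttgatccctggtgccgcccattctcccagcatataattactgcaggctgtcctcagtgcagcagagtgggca
Cyp3a11 holds 2 of them, AGGTCA from 162 to 157 bases before the start and AGTTCA, on the opposite strand, from 142 to 137 bases before it. Neither hexamer occurs in the windows of Nr0b2 and Fabp6. Across 32851 RefSeq promoter windows of the same length AGGTCA was found in 14% and AGTTCA in 11.8%, and either of them in 24.2%. Only exact matches were searched, so a receptor site that departs from these hexamers would not be marked. A match is only a match of letters, and its absence concerns these exact letters in this window alone.

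**Figure D3:**
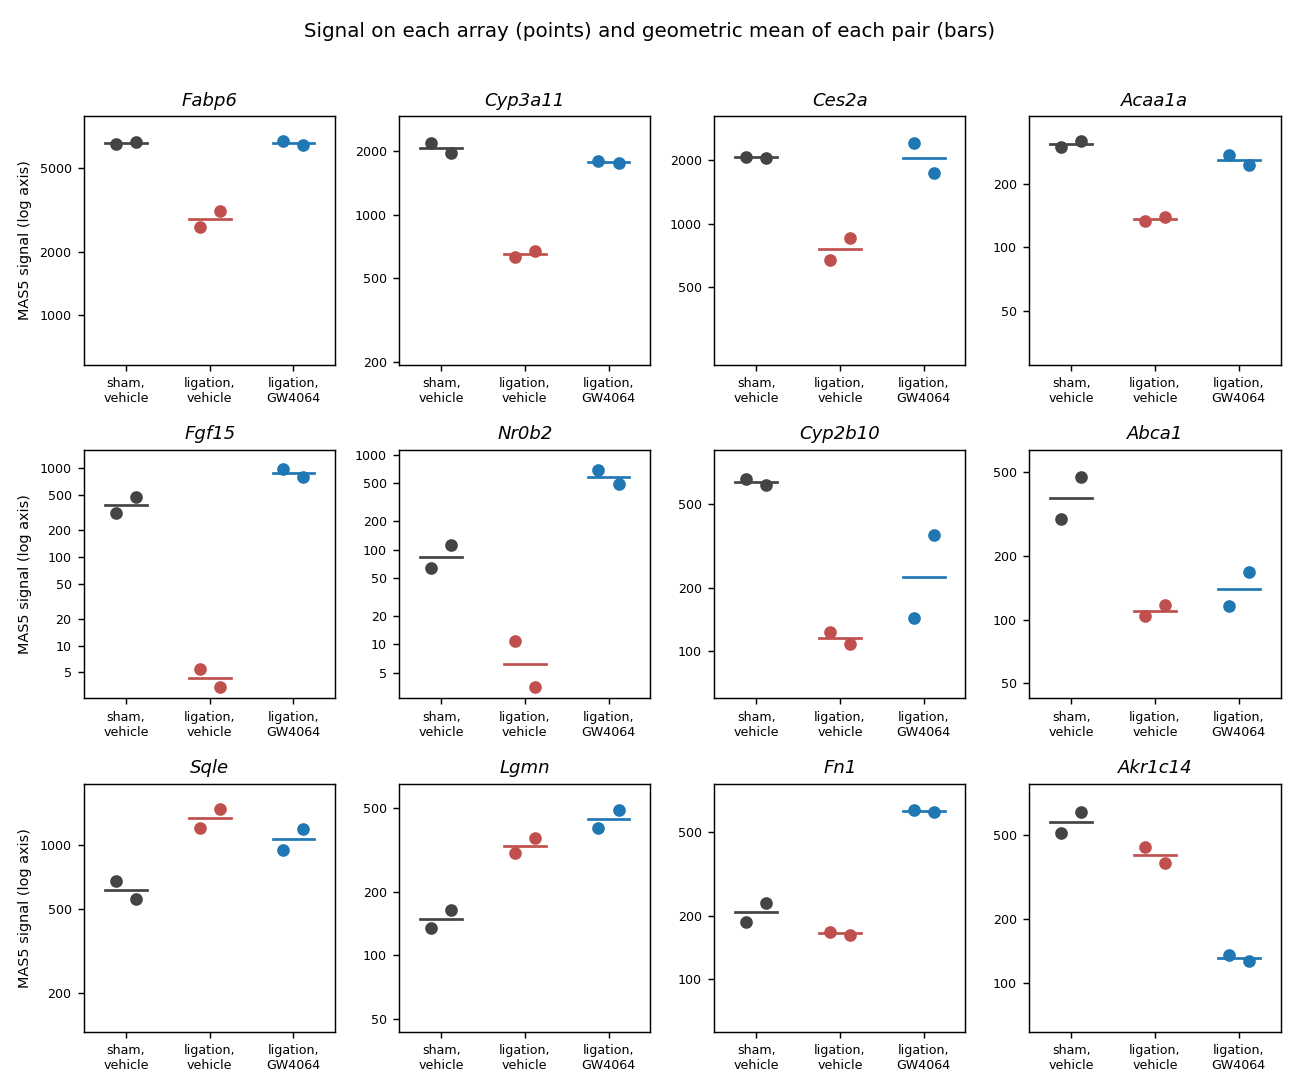
MAS5 signal (vertical, log axis, its range set per gene) of 12 genes on each of the 6 arrays, in the order sham with vehicle, ligation with vehicle and ligation with GW4064. Points are arrays and bars the geometric mean of each pair. With GW4064, Fabp6, Cyp3a11, Ces2a and Acaa1a lie near the sham level, Cyp3a11 and Acaa1a slightly below it on both arrays. Fgf15 and Nr0b2 lie above it with GW4064. In both ligated groups Cyp2b10 and Abca1 lie below it and Sqle and Lgmn above it. Fn1 and Akr1c14 differ from sham mainly with GW4064.

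The other genes of bile acid handling did not share 1 direction. Of 24 genes on the FXR and bile acid transport list, 20 were tested, of which 7 were higher and 13 lower than sham (51.8% and 48.2% of all genes), 7 and 6 of them without overlap (25% and 24% of all genes), and none passed the adjusted test (0.0253% of all genes did). Slc10a2, the uptake transporter, read 596 and 324 in sham, 507 and 357 after ligation and 118 and 215 with GW4064. Both GW4064 arrays were below both sham arrays, although the sham arrays themselves were far apart, and the difference was -1.44 ± 0.36 (adjusted p = 0.181). Slc51a, a subunit of the export transporter, had 2956 and 2475 in sham, 2097 and 2589.5 after ligation and 3677 and 3591 with GW4064, a difference of 0.43 ± 0.14 (adjusted p = 0.229). Nr1h4 itself overlapped between the groups at 428 and 317.5 in sham and 319 and 275 with GW4064. Nr1i2, the pregnane X receptor, was higher without overlap at 286 and 263 against 169.9 and 145 in sham (difference 0.79 ± 0.16, adjusted p = 0.176). No probe set is annotated to Slc51b alone.

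Cyp2c55, Cyp2b10 and Cyp2c65, cytochrome P450 enzymes that oxidise drugs, steroids and fatty acids, were placed as still changed, though none passed the adjusted test against sham. Cyp2c55 read 862 and 282 in sham, 31.5 and 19.9 with ligation and 152 and 207 with GW4064. The agonist arrays lay between the other groups, at -1.45 ± 0.47 against sham, and with ligation alone the gene was at least 12.1-fold lower, taken against the signal of 37.1 since both arrays were under it. Cyp2b10, the classic target of the constitutive androstane receptor, gave 656 and 613 in sham, 123 and 109 after ligation and 143 and 353.5 with GW4064, and all 3 of its tested probe sets were still changed (-1.48 ± 0.36 on the brightest, with replicate 2 the higher of the GW4064 pair). Cyp2c65 had a difference of -0.82 ± 0.20 after -1.24 ± 0.20 for ligation alone. With the array split as a term Cyp2c65 was at -0.34 and near sham, and Cyp2c55 (-0.88) and the brightest Cyp2b10 probe set (-1.30) were unresolved. Cyp2c55 was also unresolved without Sham_Vehicle replicate 1 or BDL_GW4064 replicate 1. Over the P450 list 17 of 37 genes were tested, 6 higher and 11 lower, 2 and 8 of them without overlap (25% and 24% of all genes), with a median of -0.23 beside -0.36 for ligation alone. Carboxylesterases were lower in 8 of 8 genes, counting Ces2a at -0.01, and 5 were without overlap (24% of all genes), at a median of -0.38 (-0.46 to -0.08 over the alternatives, ligation alone -0.50), and none passed the adjusted test. Ces1g, a triglyceride-lowering carboxylesterase of the first family, read 80.6 and 76.8 in sham and 45.4 and 27.3 with GW4064 (difference -1.07 ± 0.30). Among conjugating and carbonyl-reducing enzymes 9 of 25 were higher and 16 lower, 5 and 11 without overlap (25% and 24% of all genes). Akr1c14 was the only one that passed the adjusted test (0.0253% of all genes did). Its relative Akr1c13 gave 811.5 and 920 against 590.4 and 451 (-0.74 ± 0.16), and the glucuronosyltransferase Ugt2b5 290.1 and 289 against 168 and 186 (-0.70 ± 0.15).

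Among glutathione transferases 12 of 18 were higher and 6 lower, 7 and 1 without overlap (25% and 24% of all genes), at a median of 0.07 that ran from -0.08 to 0.14 over the alternatives. Gsta4, which detoxifies lipid aldehydes, read 256 and 245 in sham, 175.5 and 216 after ligation and 513 and 687 with GW4064 (difference 1.23 ± 0.19, adjusted p = 0.136). Gstm1 lay at 207 and 224, then 109 and 138 and then 311 and 334, so that it was low with ligation alone and above sham with GW4064 (difference 0.57 ± 0.17).

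None of the genes of cholesterol export and synthesis passed the adjusted test. Abca1, the exporter of cellular cholesterol and a target of the liver X receptor (LXR), had 299.8 and 472 in sham, 104 and 117 after ligation and 116 and 168 with GW4064. The GW4064 arrays sat with the ligated vehicle arrays, at -1.40 ± 0.26 from sham (adjusted p = 0.163) and 0.33 ± 0.26 from ligation with vehicle. Scd2, a fatty acid desaturase, showed the same order with 1526 and 916, 495 and 436 and 580.3 and 426, and its difference from sham was -1.24 ± 0.25. Mylip, an LXR target that degrades the LDL receptor, differed by -0.67 ± 0.19. In the list of cholesterol efflux and LXR targets 7 of 15 were higher and 8 lower, 3 and 6 without overlap (25% and 24% of all genes), with a median of -0.22 beside -0.53 for ligation alone. Elovl6, a fatty acid elongase, was among the higher ones at 668 and 668 against 396 and 348 (0.84 ± 0.13). Cholesterol synthesis was higher in 17 of 19 genes, 11 without overlap (25% of all genes), at a median of 0.28 where ligation alone gave 0.55. Sqle, squalene epoxidase, read 674 and 559 in sham, 1207 and 1491 after ligation and 948 and 1198 with GW4064 (difference 0.79 ± 0.17, adjusted p = 0.176). Msmo1 and Fdps, further enzymes of the pathway, differed by 0.91 ± 0.26 and 0.76 ± 0.28, while Stard4, a sterol carrier, had -0.53 ± 0.13. With the array split as a term in the model the synthesis median was 0.09.

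Some genes that were high with ligation alone were also above sham with GW4064. Lgmn, the lysosomal protease legumain, read 135 and 163 in sham, 303 and 359.8 after ligation and 401 and 488 with GW4064. Each group was apart from the next, and the difference from sham reached 1.55 ± 0.18 (adjusted p = 0.0715). Angptl4, a secreted inhibitor of lipoprotein lipase, had 215.5 and 249 in sham, 569 and 450.1 after ligation and 401 and 385 with GW4064 (0.75 ± 0.17). Vipr1, a receptor for vasoactive intestinal peptide, carried the widest ligation difference of a named gene still changed on this side (1.58), but its sham arrays read 129.7 and 20.9 and its interval against sham ran 0.17 to 3.32, and it kept its class in 10 of 17 settings. On the low side Sgk3, a serum- and glucocorticoid-regulated kinase, gave 119 and 162 in sham, 58.9 and 49 after ligation and 52.9 and 58.2 with GW4064, a difference of -1.26 ± 0.23 beside ligation alone (-1.31 ± 0.23). Cstf3, a cleavage stimulation factor of mRNA 3' ends, behaved alike at -1.23 ± 0.17 and -1.14 ± 0.17. Rab30, a Golgi GTPase, read 75.7 and 86.4 in sham and 30 and 32.1 with GW4064 (-1.28 ± 0.33). Sst, the hormone somatostatin, lay between the groups with 177.5 and 249, 76.6 and 84.9 and 129.6 and 131, a difference of -0.67 ± 0.20.

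For the unresolved genes the interval against sham included 0 but did not lie wholly within 2-fold. Enpp3, an ectonucleotidase, read 418 and 422 in sham, 139 and 146.5 after ligation and 574.5 and 132 with GW4064, so that replicate 1 was above sham and replicate 2 at the ligated level. Another of its probe sets, also split between the GW4064 arrays, was placed as still changed (-1.53, interval -2.91 to -0.15), in 9 of 17 settings. Leap2, an antimicrobial peptide and ghrelin receptor antagonist, had 317.5 and 586, 91.1 and 212 and 289.6 and 239, with an interval of -1.65 to 0.24. Scd1 ran -1.64 to 0.05 and Dclk1, a tuft cell kinase, -1.81 to 0.08.

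Markers of fibroblasts, macrophages and endothelium had medians near or slightly under sham after ligation alone and above it with GW4064. In bulk tissue a larger share of such cells and more RNA per cell cannot be told apart. Of 28 tested fibroblast and matrix markers, 25 were higher and 20 of them without overlap, against 25% of all genes, and 17 had an unadjusted p under 0.05 (7.15% of all genes on the higher side, 7.08% on the lower). Their median was 1.03 where ligation alone gave -0.09, and it was close to this on either GW4064 array, at 0.98 and 1.15. Fn1 passed the adjusted test, as given above. Col6a3, a chain of collagen VI, read 70 and 142 in sham and 366 and 284.5 with GW4064 (1.65 ± 0.31, adjusted p = 0.165). Col1a2, a chain of collagen I, had 148 and 217 against 452 and 479 (1.36 ± 0.26), and the proteoglycan gene Bgn 194 and 255 against 493 and 371 (0.93 ± 0.20). The 32 markers on the array summed to signals of 3396 to 4943 in sham and 8067 to 9178 with GW4064, and 1 of them was under 37.1 on all 4 arrays. With the array split as a term the median was 0.72.

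Smooth muscle markers looked alike by their median of 1.74, with 13 of 13 higher and 6 without overlap (25% of all genes), but rested on 1 array. Their summed signal was 3717 to 3937 in sham, 3882 on GW4064 replicate 1 and 21590 on replicate 2, and 0 of 16 markers were under 37.1 on all 4 arrays. Tagln, the actin-binding protein transgelin, read 74.9 and 118 in sham and 144 and 1992 with GW4064, and Myh11, smooth muscle myosin, 62 and 82 against 92.5 and 1148.5. Without GW4064 replicate 2 the median of the list was 0.16. The fibroblast median was 1.07 without that array. The part of muscle layer in other differences on it was not tested. Adipose markers also differed more on replicate 2 (0.85 against 0.22 on replicate 1), and their median of 0.90 over 5 genes was 0.23 without Sham_Vehicle replicate 1.

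Macrophage, dendritic cell and granulocyte markers were higher in 14 of 14 genes, 11 without overlap (25% of all genes) and 7 at an unadjusted p under 0.05 (7.15%), at a median of 0.64 where ligation alone gave 0.08. The complement component genes C1qc and C1qa, made by tissue macrophages, led the list. C1qc read 113 and 126 in sham, 153 and 149 after ligation and 310 and 283 with GW4064 (1.29 ± 0.16, adjusted p = 0.0791), and C1qa 163 and 128, 209 and 178 and 341 and 363 (1.26 ± 0.18). Fcer1g, an Fc receptor chain, gave 59 and 72.4 in sham and 159.6 and 125 with GW4064. Summed over the 20 markers on the array the signals were 1950 to 2154 in sham and 3278 to 3619 with GW4064, and 5 markers were under 37.1 on all 4 arrays. Endothelial markers were higher in 7 of 8, 5 without overlap (25% of all genes), at a median of 0.54 (ligation alone -0.24), for example Eng, an endothelial TGF-beta coreceptor, with 62.7 and 70.5 against 120.3 and 118 (0.80 ± 0.19). Outside the lists, Gpx3, a secreted glutathione peroxidase, read 139 and 155 in sham, 159.9 and 187 after ligation and 369.9 and 386 with GW4064 (1.34 ± 0.16, adjusted p = 0.075), and Serping1, the C1 inhibitor, read 107 and 145 against 299.7 and 332 (1.31 ± 0.19). Ecm1, an extracellular matrix protein, differed by 1.35 ± 0.18 and Usp2, a deubiquitinase under clock control, by 1.65 ± 0.24.

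**Figure D4:**
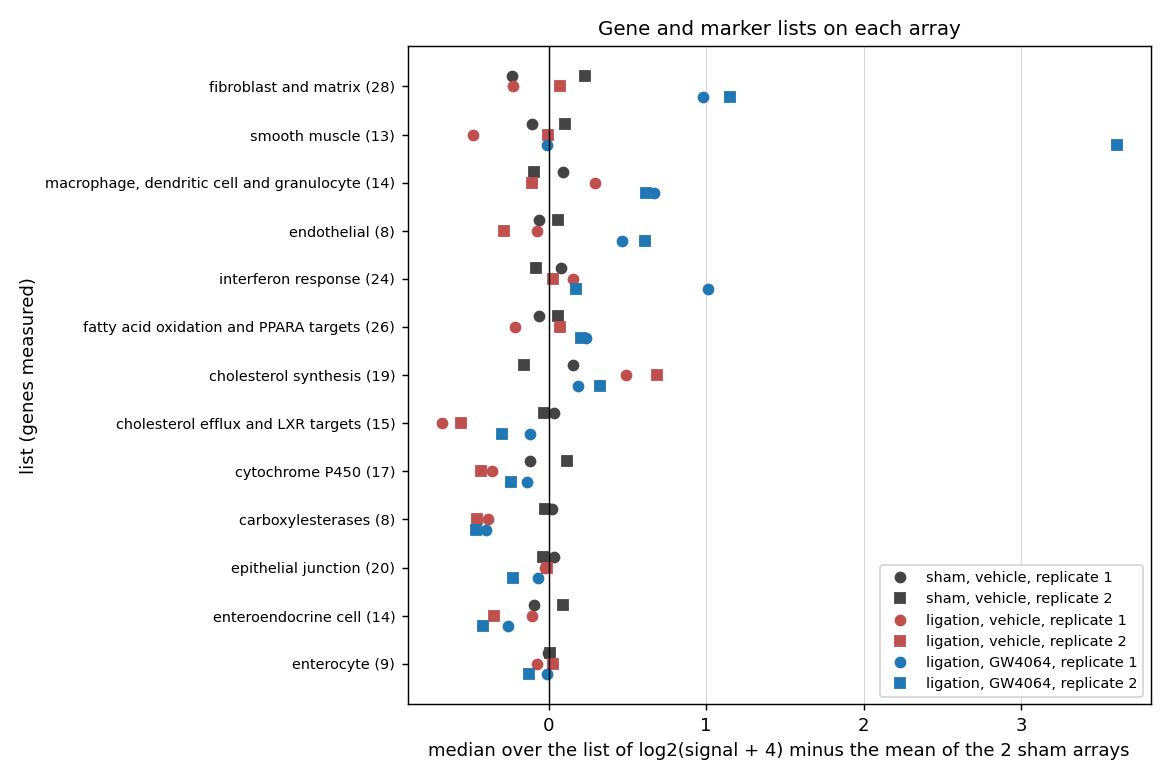
Median over each gene or marker list of log2(signal + 4) minus the mean of the sham arrays (horizontal axis), 1 point per array and list; the number of tested genes stands in parentheses. Fibroblast, macrophage and endothelial lists are high on both GW4064 arrays, the smooth muscle list on replicate 2 at 3.61 and not on replicate 1, and the interferon list mainly on replicate 1.

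Interferon-response genes were higher in 24 of 24, 15 without overlap (25% of all genes) and 8 at an unadjusted p under 0.05 (7.15% of all genes), with a median of 0.70 beside 0.11 for ligation alone. The GW4064 arrays disagreed in size, since the median was 1.01 on replicate 1 and 0.18 on replicate 2. Ifi27l2a, an interferon-inducible mitochondrial protein, read 87.6 and 89 in sham, 74.7 and 82.7 after ligation and 542 and 191.5 with GW4064 (1.82 ± 0.41). Ifitm3, which blocks virus entry, was even on the pair at 706 and 685 against 451 and 352 in sham (0.80 ± 0.18). Psmb9, an immunoproteasome subunit, was at 344.5 and 321 in sham, 470.5 and 588 after ligation and 618 and 489.9 with GW4064, so the ligated groups overlapped with each other. Zbp1, a sensor of nucleic acids, differed by 1.20 ± 0.29.

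Defence genes that the published study followed up were all higher, 4 of 4 without overlap (25% of all genes), at a median of 1.36. The study picked them from its own arrays, so their direction is no independent evidence. Il18, an epithelial cytokine, read 304 and 325 in sham, 465 and 379 after ligation and 729 and 1155 with GW4064 (1.53 ± 0.22, adjusted p = 0.105). Car12, a carbonic anhydrase, had 199.7 and 136, 157.5 and 106 and 341 and 428 (1.19 ± 0.26, adjusted p = 0.176). Ang, the antimicrobial ribonuclease angiogenin, read 61.8 and 119.5 in sham, 50.7 and 31.2 with ligation and 134.5 and 156 with GW4064, with an interval against sham of -0.07 to 1.52 that includes 0. Nos2, inducible nitric oxide synthase, was dim and uneven at 57.1 and 2.5 in sham and 57.6 and 145 with GW4064, and its groups barely separated. Among 22 genes of mucosal defence and antimicrobial activity 15 were higher and 7 lower, 7 and 3 of them without overlap (25% and 24% of all genes), at a median of 0.12. Reg3a, a secreted lectin of the Reg3 family, was on the lower side with 1566 and 1686 in sham and 1169 and 663 with GW4064 (-0.88 ± 0.25).

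Fatty acid oxidation genes and other targets of the receptor PPARA were higher in 17 of 26, 15 without overlap (25% of all genes) and 10 at an unadjusted p under 0.05 (7.15%), at a median of 0.25 (ligation alone -0.06). Pdk4, the kinase that shuts pyruvate out of oxidation, read 41.8 and 27.3 in sham, 16.1 and 24.5 after ligation and 144 and 131 with GW4064 (1.90 ± 0.30, adjusted p = 0.141). Acaa1b, a peroxisomal thiolase, gave 59.9 and 115, 42.8 and 76.1 and 244 and 235 (1.48 ± 0.35), unlike its relative Acaa1a, which lay near sham. Cpt1a, which admits fatty acids to mitochondria, differed by 0.44 ± 0.12 on its brightest probe set. Its dimmer tested probe sets were lower than sham, at -0.34 and -1.16, so the probe sets of this gene disagreed. The list had a median of 0.00 once the array split entered the model.

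Of 20 epithelial junction genes 6 were higher and 14 lower, 2 and 9 without overlap (25% and 24% of all genes) and 6 lower at an unadjusted p under 0.05 (7.08%), at a median of -0.14 (ligation alone -0.03). Cldn23, a claudin of the upper epithelium, read 437 and 417 in sham, 445 and 389.6 after ligation and 205 and 206 with GW4064 (-1.04 ± 0.14, adjusted p = 0.103). Cdh1, E-cadherin, gave 1992 and 2351 against 1493 and 1485 (-0.54 ± 0.17), and Ocln, occludin, 1012 and 836 against 667 and 605 (-0.53 ± 0.16). Among nutrient transporters and brush border proteins 8 of 23 were higher and 15 lower, 4 and 8 without overlap (25% and 24% of all genes), at a median of -0.07. Cftr, the chloride channel, lay at 568 and 515 in sham and 308.5 and 279 with GW4064 (-0.87 ± 0.15). A far dimmer Cftr probe set had the opposite sign, with overlap (0.56 ± 0.49, ligation alone 1.03), so the probe sets of this gene disagreed. The peptide transporter Slc15a1 lay at 590.4 and 629 in sham and 377 and 274 with GW4064 (-0.91 ± 0.18). By contrast, the anion exchanger Slc26a3 was higher at 1823 and 1530.5 against 793 and 785 (1.08 ± 0.24). Enterocyte markers had a median of -0.09 over 9 genes. Enteroendocrine markers were lower in 10 of 14, 6 without overlap (24% of all genes), at a median of -0.32 (ligation alone -0.25, and 0.00 with the array split as a term). Gcg, proglucagon, read 797 and 774 in sham, 938 and 499 after ligation and 421 and 487.5 with GW4064 (-0.79 ± 0.27). Naip5, an inflammasome sensor of flagellin, had the smallest p of a lower gene after Akr1c14, with signals of 1414 and 1606 in sham, 1099 and 1037 after ligation and 704.5 and 791 with GW4064 (-1.01 ± 0.13, adjusted p = 0.0791).

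Cell cycle genes were higher in 31 of 34, but 8 of these were without overlap (25% of all genes) and the median of 0.25 lay beside 0.33 for ligation alone. The median was 0.50 without BDL_GW4064 replicate 1 and -0.01 without replicate 2. Ube2c, a ubiquitin ligase partner of mitosis, read 347 and 296 in sham, 546 and 444 after ligation and 414 and 639 with GW4064 (0.68 ± 0.22). The unfolded protein response and heat shock list was split, with 19 of 32 higher and 13 lower, 12 and 5 of them without overlap (25% and 24% of all genes), at a median of 0.04. Herpud1, a protein of endoplasmic reticulum degradation, had 410 and 405, 423 and 519.5 and 789 and 682 (0.84 ± 0.15, adjusted p = 0.159), and the glutathione-degrading enzyme Chac1 differed by 1.13 ± 0.26, while the chaperone Dnajb9 had -0.76 ± 0.22. Clock genes gave a median of 0.09 over 15 genes with members apart in both directions, Per1 at 1.03 ± 0.25 and Npas2 at -1.28 ± 0.33. Lipid uptake and chylomicron genes were higher in 14 of 18, 7 without overlap (25% of all genes), at a median of 0.10. Antigen-processing genes were higher in 11 of 15 and lower in 4, with 4 and 3 without overlap (25% and 24% of all genes), at a median of 0.12, and the antioxidant genes regulated by NRF2 in 10 of 18, at a median of 0.09. Immediate early genes had a median of -0.03 over 14 genes, of which 6 were higher. Among the remaining epithelial markers the median was -0.05 for goblet cells (-0.11 to 0.06 over the alternatives), 0.06 for Paneth cells (-0.01 to 0.52) and -0.11 for crypt stem cells (-0.25 to 0.27). For T cells and intraepithelial lymphocytes it was 0.15 (-0.39 to 0.72) and for B and plasma cells -0.11 (-0.42 to 0.19), so no direction is given for these lists. Exocrine pancreas markers were under a signal of 37.1 on all 4 arrays for 6 of 8 genes and mast cell markers for 5 of 7.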

How the data were processed

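Ileal RNA was hybridised to Affymetrix Mouse Genome 430A 2.0 arrays, 6 in all, in 3 groups of 2 taken from the sample titles. The authors deposited MAS5 signals, a linear intensity per probe set, scaled per array, per the submitters' processing notes and the values. Of 22690 rows 64 controls were left out. Of the other 22626 probe sets, 20380 name 1 gene, 691 several and 1555 none.

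Signals were taken as log2(signal + 4), the 40% of probe sets with the lowest mean were removed, and limma 3.58.1 in R 4.3.3 (eBayes with trend) was fitted with 1 mean per group over all 6 arrays, with 3 residual and 4.71 prior degrees of freedom. P-values are two-sided and Benjamini-Hochberg adjusted over 13575 probe sets, with a threshold of 0.05. With 2 arrays per group the number of arrays limits the precision. On 20 data sets simulated for this comparison over 13575 probe sets, recovery was 41.9% at a 2-fold change, 92.1% at 4-fold and 98.2% at 8-fold, and 4.61% of calls were false. The simulated noise was normal and independent between arrays, with 200 changed probe sets and no array split. These rates therefore need not hold for the real arrays.

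The members and the 40 gene and marker lists were chosen with earlier results of these data known. Named genes are, by rule, the called genes, up to 10 non-overlapping genes per direction by smallest p, the 6 with the largest ligation difference per class, up to 4 per list by smallest p, and 12 genes of FXR signalling and the published study. A few further genes that a count or contrast singles out were chosen after their values were seen. Lists are described by counts and medians without a set test. Alternatives covered normalization, pseudocount, filter, prior, replicate block, array split, left-out arrays, the class rule and, added after seeing the data, removal of _x_at probe sets. Promoter bases came from RefSeq (GRCm38.p6), which held 3 of 4 genes looked up. Fgf15 was the fourth.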

Additional observations from a re-analysis of the deposited data

How the results depend on the processing

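Of 86 genes followed through 20 alternatives, 78 kept their direction in all, and of 33 list medians 14 kept their sign. The 5 calls became 3 with median centring, 3 without _x_at probe sets, 0 without the signal trend (2055 at an unadjusted p under 0.05), 0 with the array split as a term (436), and from 1 to 32 when 1 array was left out. With the replicate number as a block limma called 0 (1936 at an unadjusted p under 0.05), but the numbers did not pair the arrays (correlations of deviations 0.04, 0.09 and -0.12). In the ligation classes, near sham, still changed and unresolved probe sets numbered 32, 176 and 286 with no filter and 3, 33 and 62 with the array split. With 60% left out near sham, overshoot and unresolved came to 7, 1 and 16, and with a pseudocount of 16 the unresolved to 15. A 1.5-fold size rule gave 149 near sham, 11 overshooting, 237 still changed and 185 unresolved, and a 1.5-fold margin gave 4 near sham. Leaving out 1 array gave 6 to 31 near sham, 2 to 9 overshooting, 33 to 241 still changed and 36 to 106 unresolved. Signs turned for Gcg (0.12) and Nr1h4 (0.034) with the array split. Without 1 array they turned, at their lowest and highest, for Ces2a (-0.25 to 0.23), Fabp6 (-0.034 to 0.027), Ivd (-0.19 to 0.40), Tkfc (-0.55 to 0.36), Enpp3 (-1.64 to 0.45) and Rps9 (-0.11 to 0.17). The causes were not tested.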
